A study of Homo sapiens with 12 samples.

Results

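CEACAM1, CEACAM5, CEACAM6 and CEACAM7 belong to the carcinoembryonic antigen-related cell adhesion molecules, and their 4 Ensembl identifiers were all found among the 12584 genes of the count table. The genes were followed in RNA-seq libraries of A549 and PC9, established human non-small cell lung cancer lines, in which stably infected cells carried either the HOXC6 lentiviral vector pCDH-HOXC6 (A549-HOXC6 and PC9-HOXC6) or the empty vector pCDH-NEO (A549-NEO and PC9-NEO), with 3 libraries in each of 4 groups. Cells of every group went through vector transfer and neomycin selection, no group without a vector was analysed here, and the methods do not say whether a culture was a clone or a pool or which promoter drove HOXC6. The lines were kept in different media, so line and medium cannot be told apart. HOXC6 itself was not analysed here, and the labels could therefore not be checked on it.

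CEACAM proteins are cell surface glycoproteins of the immunoglobulin superfamily that bind one another, and each other's relatives, between neighbouring cells. CEACAM1 spans the membrane and carries cytoplasmic inhibitory motifs that recruit SHP phosphatases, whereas CEACAM5 (CEA, the serum tumor marker), CEACAM6 and CEACAM7 are held in the outer membrane leaflet by a GPI anchor. CEACAM5 and CEACAM6 are made by many adenocarcinomas, including those of the lung, and CEACAM7 is known mainly from the epithelium of the colon and the pancreatic duct.

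The 4 genes lie on chromosome 19 of GRCh37, 3 of them side by side. CEACAM7 (ENSG00000007306) occupies 42177231 to 42210895 on the reverse strand, CEACAM5 (ENSG00000105388) 42212504 to 42234353 on the forward strand, and CEACAM6 (ENSG00000086548) 42254885 to 42276116 on the forward strand. CEACAM1 (ENSG00000079385) stands apart from them, from 43011456 to 43065386 on the reverse strand. Their canonical transcripts hold 5 exons in CEACAM7, 10 in CEACAM5, 6 in CEACAM6 and 9 in CEACAM1. Although the genes arose from common ancestors, no stretch of 100 bases was shared without a mismatch between transcripts of the 4 genes. Stretches shared with any other gene made up 2.0% of the CEACAM6 windows, 1.9% of the CEACAM5 windows, 0.5% of the CEACAM1 windows and 0.0% of the CEACAM7 windows. The strand setting of the counting is not given in the sources used here. This touches CEACAM1, of whose exons 185 bp lie opposite exons of another gene, while 139 bp of CEACAM5 and 138 bp of CEACAM6 exons overlap exons of another gene on the same strand.

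The sequences before the transcription starts are shown because CEACAM5 and CEACAM6 moved together in PC9 and because E-box and GC box elements have been described before the starts of this family. They come from the RefSeq promoter table of GRCh38.p14, and each was found once on chromosome 19 of GRCh37, whose positions are given. Each runs from 250 bases to 40 bases before the RefSeq start, or to 98 bases before it in CEACAM7, and is written in the direction of its gene. Of the 250 bases searched, 97 in CEACAM7, 41 in CEACAM5 and 10 in CEACAM6 lie in annotated exons of the gene. The CEACAM7 sequence is therefore cut shorter. The windows of CEACAM1, CEACAM6 and CEACAM7 lie inside the gene spans given above. The printed CEACAM5 stretch ends at 42212505 and so also reaches into its gene span, which starts at 42212504. Capitals mark CACGTG (an E-box) and GGGCGG or its reverse complement CCGCCC (a GC box).
CEACAM5, chr19:42212295-42212505, forward strand: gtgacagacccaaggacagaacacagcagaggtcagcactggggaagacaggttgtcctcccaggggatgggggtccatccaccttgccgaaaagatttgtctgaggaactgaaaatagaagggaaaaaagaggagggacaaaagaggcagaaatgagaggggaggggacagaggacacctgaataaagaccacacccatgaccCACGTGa
CEACAM6, chr19:42259188-42259398, forward strand: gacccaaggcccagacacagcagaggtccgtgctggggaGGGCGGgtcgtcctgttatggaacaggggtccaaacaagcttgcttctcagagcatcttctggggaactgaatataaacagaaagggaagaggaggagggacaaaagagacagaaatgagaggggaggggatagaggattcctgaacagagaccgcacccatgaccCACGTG
CEACAM7, chr19:42192297-42192449, reverse strand: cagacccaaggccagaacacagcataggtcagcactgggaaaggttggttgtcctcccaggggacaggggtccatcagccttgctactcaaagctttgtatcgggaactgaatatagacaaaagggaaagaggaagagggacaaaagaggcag
CEACAM1, chr19:43032673-43032883, reverse strand: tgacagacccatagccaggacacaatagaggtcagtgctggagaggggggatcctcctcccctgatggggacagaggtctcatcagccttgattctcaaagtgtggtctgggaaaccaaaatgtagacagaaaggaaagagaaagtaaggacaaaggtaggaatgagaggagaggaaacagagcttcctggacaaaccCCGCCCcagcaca
Over the 250 bases before the start, CEACAM5 and CEACAM7 were the most alike (84.4% identical bases in a global alignment). CEACAM6 shared 80.2% with CEACAM7 and 78.5% with CEACAM5. CEACAM1 shared 72.0% with CEACAM5, 74.4% with CEACAM6 and 75.8% with CEACAM7. CACGTG, which reads the same on both strands, stood once in CEACAM5, 46 bases before the start, and once in CEACAM6, 45 bases before the start, and was not in the CEACAM1 and CEACAM7 windows. It was in 6.3% of 35116 promoters of the same length. GGGCGG was found once in CEACAM1 (52 bases before the start) and once in CEACAM6 (211 bases before), against 42.6% of all promoters. The homeodomain core TAAT and the longer TAATTA, which contains it, were searched on both strands and were in none of the 4 windows, against 47.4% and 4.3% of all promoters. These matches describe letters and not bound sites.

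Over the genes in the table, totals ran from 1212053 to 3286577 counts per library, with A549-HOXC6 replicate 2 and PC9-HOXC6 replicate 2 the shallowest, and these totals cover part of the genes. Levels are given in CPM, in which every library is brought to the same total with TMM factors, and a floor of 3 counts equals 0.913 to 2.55 CPM depending on the library (counting error only). None of the 12 replicate pairs matched within counting error (their chi-square, divided by its degrees of freedom, was 1.58 to 4.26). The methods call the 3 replicates independent without naming separate cultures, so the p-values below measure the spread between these libraries, which may be technical. As a check of the cell type, all 4 of the epithelial markers in the table (of 6 listed) were above the floor in each group, with summed levels of 7820 to 11700 CPM per library. The 5 leukocyte and granulocyte markers in the table (of 7) summed to 0.732 to 6.93 CPM, the endothelial marker VWF (1 of 3 in the table) reached at most 2.13 CPM, and LUM was at 0 in all groups. The 4 fibroblast markers summed to 54.4 to 76.2 CPM in A549 and 19.5 to 39.4 CPM in PC9, mostly from COL1A1.

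CEACAM6 was higher with the HOXC6 vector in both lines. In A549-NEO its counts were 8, 0 and 3 in replicates 1 to 3, or 2.79, 0 and 1.18 CPM. In A549-HOXC6 they were 37, 22 and 21, or 13.5, 18.7 and 11.2 CPM. PC9 cells with the empty vector had 42, 44 and 49 counts (22.6, 22.1 and 20.7 CPM), and those with HOXC6 had 95, 59 and 143 (45.6, 43.2 and 43.5 CPM). No HOXC6 library of either line overlapped the NEO libraries of that line, and the 4 groups formed 4 steps that did not overlap, from A549-NEO through A549-HOXC6 and PC9-NEO to PC9-HOXC6. Group means were 1.32 ± 1.40, 14.5 ± 3.86, 21.8 ± 0.956 and 44.1 ± 1.30 CPM (SD, n = 3) in that order. As these are bulk samples, more cells with CEACAM6 RNA and more RNA per cell cannot be told apart.

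CEACAM5 was near the floor in A549 and clearly present in PC9, where it was higher with the HOXC6 vector. A549-NEO had 2, 0 and 0 counts, and A549-HOXC6 had 0, 2 and 4. PC9-NEO had 13, 8 and 19 counts (6.99, 4.02 and 8.04 CPM), and 31, 20 and 50 were found with HOXC6 (14.9, 14.6 and 15.2 CPM). All PC9-HOXC6 libraries were above all PC9-NEO libraries, and the PC9-HOXC6 libraries lay within 1 CPM of each other. Means were 0.232 ± 0.403 CPM in A549-NEO, 1.28 ± 1.13 in A549-HOXC6, 6.35 ± 2.09 in PC9-NEO and 14.9 ± 0.287 in PC9-HOXC6 (SD, n = 3).

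CEACAM1, the transmembrane member, was at a low and similar level in the 4 groups. Its counts were 33, 22 and 36 in A549-NEO, 35, 12 and 25 in A549-HOXC6, 19, 23 and 18 in the PC9-NEO libraries, and 20, 17 and 31 in those of PC9-HOXC6. These correspond to 11.5, 8.86 and 14.2 CPM, 12.8, 10.2 and 13.3 CPM, 10.2, 11.6 and 7.62 CPM, and 9.60, 12.4 and 9.43 CPM. The 4 groups overlapped one another, and their means lay between 9.80 CPM in PC9-NEO (libraries from 7.62 to 11.6) and 12.1 ± 1.66 CPM in A549-HOXC6 (SD, n = 3).

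CEACAM7 had reads in A549 and none in PC9. In A549-NEO there were 10, 16 and 7 (3.49, 6.44 and 2.75 CPM), against 5, 6 and 0 with HOXC6 (1.83, 5.11 and 0 CPM). The A549 groups overlapped, with means of 4.23 ± 1.95 and 2.31 ± 2.59 CPM (SD, n = 3). All 6 PC9 libraries had 0 counts, which allows up to 0.913 to 2.20 CPM depending on the library.

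**Figure D1:**
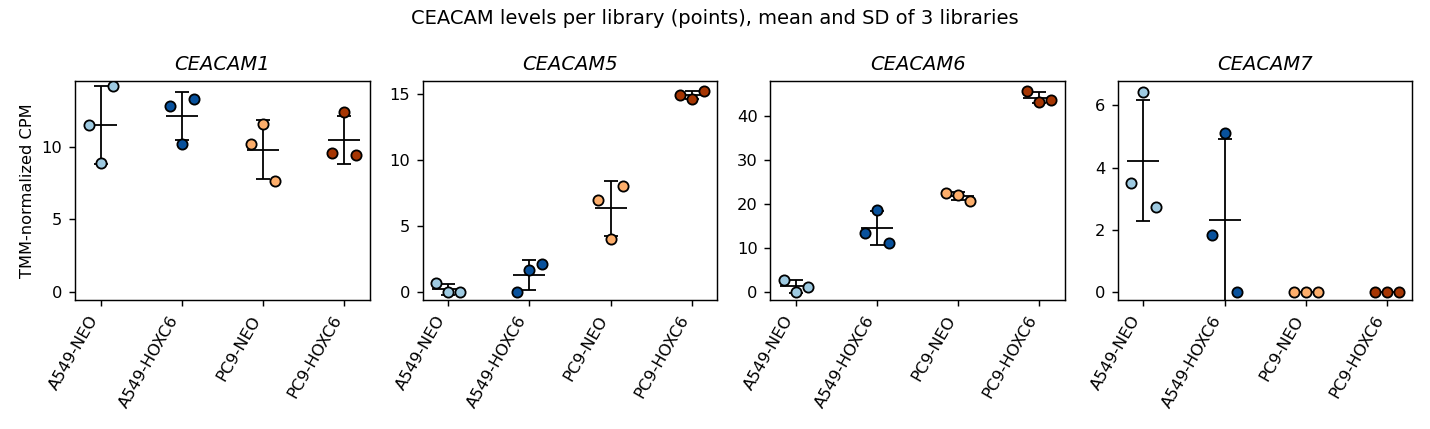
TMM-normalized CPM (vertical axis, a scale of its own for each gene) of the 4 CEACAM genes in the 4 groups; points are libraries, long lines the mean and bars the SD of 3 libraries, the lower bar of CEACAM7 in A549-HOXC6 running below 0 and off the axis. CEACAM6 steps up from A549-NEO (mean 1.32 CPM) to PC9-HOXC6 (44.1 CPM) with no overlap, CEACAM1 overlaps across groups, and CEACAM7 is at 0 in every PC9 library.

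Between genes, levels were compared per kilobase of exons (5527 bp in CEACAM1, 3986 in CEACAM5, 2956 in CEACAM6 and 2653 in CEACAM7). The order of the genes was not the same in the groups. In A549-NEO, CEACAM1 came first (2.08 ± 0.479 CPM per kilobase), followed by CEACAM7 (1.59 ± 0.736), whose libraries overlapped those of CEACAM1. CEACAM6 (0.448 ± 0.474) was below CEACAM7 without overlap, and CEACAM5 (0.0583 ± 0.101) overlapped CEACAM6. In A549-HOXC6, CEACAM6 was first (4.90 ± 1.31), above CEACAM1 (2.19 ± 0.300) without overlap, and CEACAM7 (0.871 ± 0.976) overlapped both CEACAM1 above it and CEACAM5 (0.321 ± 0.283) below it.

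In PC9, CEACAM6 led in both groups. In PC9-NEO it stood at 7.38 ± 0.323 CPM per kilobase, above CEACAM1 (1.77 ± 0.362) and CEACAM5 (1.59 ± 0.524), which overlapped each other. In PC9-HOXC6 the order was CEACAM6 (14.9 ± 0.440), CEACAM5 (3.74 ± 0.0719) and CEACAM1 (1.90 ± 0.307), with no overlap between neighbours. CEACAM7 was at 0 in both groups. With the longest transcript as the length in place of the union of exons, CEACAM1 in PC9-HOXC6 was at 3.01 and CEACAM5 at 4.26 CPM per kilobase, in the same order.

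**Figure D2:**
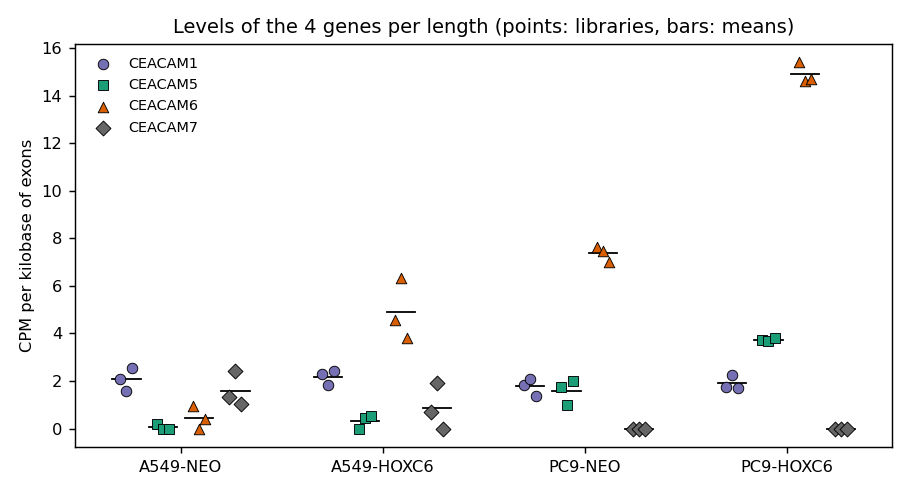
CPM per kilobase of exons (vertical axis) for the 4 genes in each group; points are libraries and short lines means of 3. CEACAM1 stays between 1.77 and 2.19 on average in all groups, while CEACAM6 moves from 0.448 in A549-NEO to 14.9 in PC9-HOXC6.

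The first comparison asked which genes the HOXC6 vector changed in A549. CEACAM6 rose by 3.25 on the log2 scale (SE 0.495, 95% interval 2.24 to 4.27, 9.53-fold), with an adjusted p of 8.27e-06 by edgeR's quasi-likelihood test with Benjamini-Hochberg adjustment over 8771 genes. Of those genes, 5 had a larger log2 fold change. Calls followed the study's thresholds, 0.05 for the adjusted p and 1 for the log2 fold change in either direction. By them CEACAM6 was the only called gene of the 2 tested, against 7.21% of all genes tested (1.70% higher and 5.51% lower; with a correction for GC content and length, 116 genes were higher and 227 lower in place of 149 and 483). Because A549-NEO held 11 CEACAM6 counts in all, against 80 in A549-HOXC6, the size of the rise rests on few counts. CEACAM6 passed the filter on low counts only through the A549-HOXC6 libraries, so its entry to the test depended on the group where it was high. The ratio of the summed counts was 9.92 (exact 95% counting interval 5.26 to 20.7), and the log2 fold change was 4.39 without A549-NEO replicate 1.

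CEACAM1 did not pass the test in A549, with a log2 fold change of 0.06 (SE 0.284, adjusted p 0.888 by edgeR) and a 95% interval of -0.52 to 0.64. CEACAM5 and CEACAM7 were removed by the filter on low counts and were not tested. Their counts leave wide limits. For CEACAM5 the ratio of A549-HOXC6 to A549-NEO counts (6 against 2) was 4.09 with an exact 95% counting interval of 0.732 to 41.5. Without the filter, edgeR gave a log2 fold change of 1.86 for CEACAM5 (adjusted p 0.368) and -1.13 for CEACAM7 (adjusted p 0.183), neither of them called.

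In PC9, the same comparison called both CEACAM5 and CEACAM6 of 3 genes tested, against 4.53% of 8419 genes (0.962% higher and 3.56% lower). CEACAM5 rose by 1.22 on the log2 scale (SE 0.309, 95% interval 0.59 to 1.85, 2.33-fold, adjusted p 0.00346 by edgeR) and 37 genes had a larger log2 fold change. CEACAM6 rose by 1.02 (SE 0.168, 95% interval 0.68 to 1.37, 2.03-fold, adjusted p 2.77e-05) and 79 genes had a larger one. Both intervals lie above 0 and include 1, so the fold change criterion was met by a narrow margin. CEACAM6 fell below it, at 0.94 to 0.98, with scaling by library size only, with the GC content and length correction, with libraries thinned to equal depth and without PC9-NEO replicate 3, and CEACAM5 fell to 0.98 without PC9-NEO replicate 2. When the test asked for a log2 fold change beyond 1, neither was called.

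CEACAM1 in PC9 had a log2 fold change of 0.08 (SE 0.307, 95% interval -0.55 to 0.70, adjusted p 0.884 by edgeR) and was not called. CEACAM7, with 0 counts in all PC9 libraries, was not tested. The proportion of CEACAM5 to CEACAM6 in PC9 is described without a test. CEACAM5 made up 23.6%, 15.4% and 27.9% of the CEACAM5 and CEACAM6 counts together in the PC9-NEO libraries, and 24.6%, 25.3% and 25.9% in the PC9-HOXC6 libraries. The Wilson 95% intervals of these shares ran from 8.01% to 39.6% in PC9-NEO and from 17.0% to 35.9% in PC9-HOXC6, and the groups overlapped. Intervals of this width leave a change in the proportion possible.

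Whether the response differed between the lines was tested as an interaction over the 12 libraries. The CEACAM6 response was larger in A549 than in PC9 by 2.26 on the log2 scale (SE 0.496, 95% interval 1.26 to 3.26, adjusted p 8.48e-04 by edgeR). This was 1 called gene of 3 tested, against 5.15% of 9229 genes (2.76% higher and 2.38% lower). In absolute terms the order was the other way, with mean CEACAM6 levels of 1.32 and 14.5 CPM in the A549 groups and 21.8 and 44.1 CPM in the PC9 groups. Without A549-NEO replicate 1 the difference was 3.40, and when the test asked for a log2 difference beyond 1 it was not called (adjusted p 0.292). With the libraries thinned to equal depth it was 4.21 (adjusted p 2.40e-04 by edgeR), and over the alternatives other than leaving out 1 library it ran from 2.20 to 4.21. For CEACAM1 the difference was 0.03 (95% interval -0.82 to 0.88, adjusted p 0.987) and for CEACAM5 0.63 (95% interval -1.46 to 2.71, adjusted p 0.734), an interval that leaves both a smaller and a larger response of CEACAM5 in A549 possible.

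Between the lines with the empty vector, CEACAM6 was higher in PC9-NEO than in A549-NEO by 3.89 on the log2 scale (SE 0.405, 95% interval 3.07 to 4.71, 14.8-fold, adjusted p 9.04e-11 by edgeR). CEACAM5 was also called higher in PC9-NEO (adjusted p 1.52e-06), and as A549-NEO held 2 counts of it against 40, its ratio is given with the exact 95% counting interval, 25.4 (6.59 to 217). These were 2 called genes of 3 tested, where 36.0% of 9076 genes were called (16.4% higher and 19.6% lower), so calls were common in this comparison. CEACAM5 and CEACAM6 passed the filter on low counts here only through the PC9-NEO libraries, the group where they were high. CEACAM1 differed by -0.28 (SE 0.290, 95% interval -0.87 to 0.31, adjusted p 0.391) and was not called. CEACAM7 was removed by the filter, and its mean in A549-NEO was at least 2.89-fold higher than the floor of 3 counts per library in PC9-NEO. Without the filter CEACAM7 was called lower in PC9-NEO (adjusted p 2.30e-06 by edgeR). In the HOXC6 groups the same bound, at least 1.52-fold, rested on A549-HOXC6 replicate 2, without which the CEACAM7 mean was 0.913 CPM, below the floor of 1.52 CPM. The ratio of PC9-HOXC6 to A549-HOXC6 for CEACAM5 (101 against 6 counts) was 14.5 (6.42 to 40.4). The comparison between lines shares its NEO libraries with the comparisons within lines, and the leave-out of A549-NEO replicate 1 moved CEACAM6 here too, to 5.02.

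**Figure D3:**
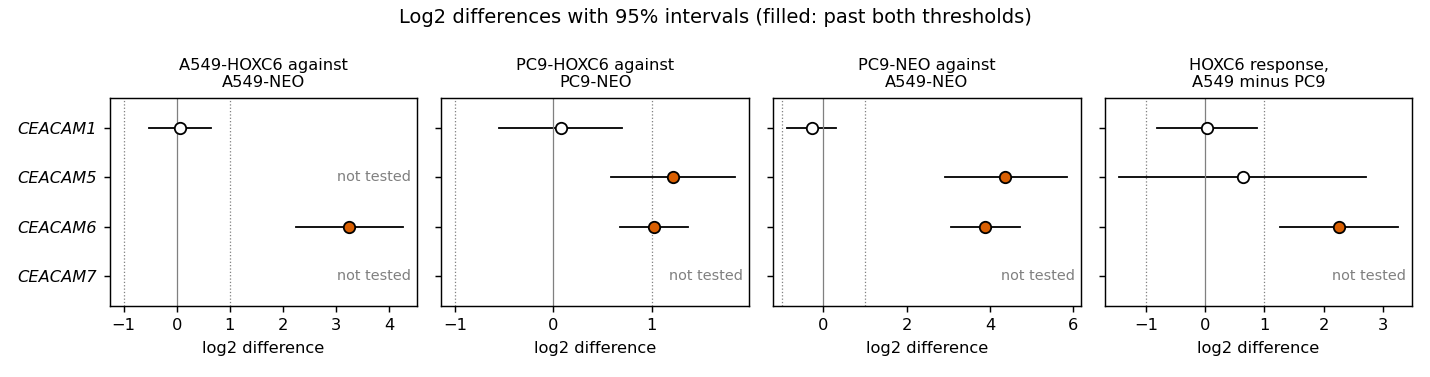
Log2 differences of the 4 genes (horizontal axes) in the 4 comparisons; points are edgeR estimates, lines 95% intervals, filled points passed both thresholds, solid lines mark 0 and dotted lines 1 and -1. CEACAM1 is close to 0 in every panel, CEACAM6 is filled in all 4, and the CEACAM5 estimate between the NEO groups rests on 2 counts in A549-NEO.

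The call of CEACAM6 in A549 stood in each setting in which the gene was tested. Log2 fold changes were 3.14 to 3.35 over 11 alternatives, with adjusted p from 4.52e-11 to 0.00413 (edgeR or DESeq2). The gene passed the filter on low counts there only through the A549-HOXC6 libraries, as A549-NEO held 8, 0 and 3 counts. With at least 10 counts in every library, and after thinning, it was not tested, so those settings could not go against the call. In PC9, CEACAM6 ranged from 0.94 to 1.03 over 13 alternatives and was called in 8 of them, and CEACAM5 ranged from 1.06 to 1.43 over 12 and was called in 11. Apart from the test that asked for more than 1, the calls lost in PC9 missed the fold change criterion and kept an adjusted p under 0.05.

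**Figure D4:**
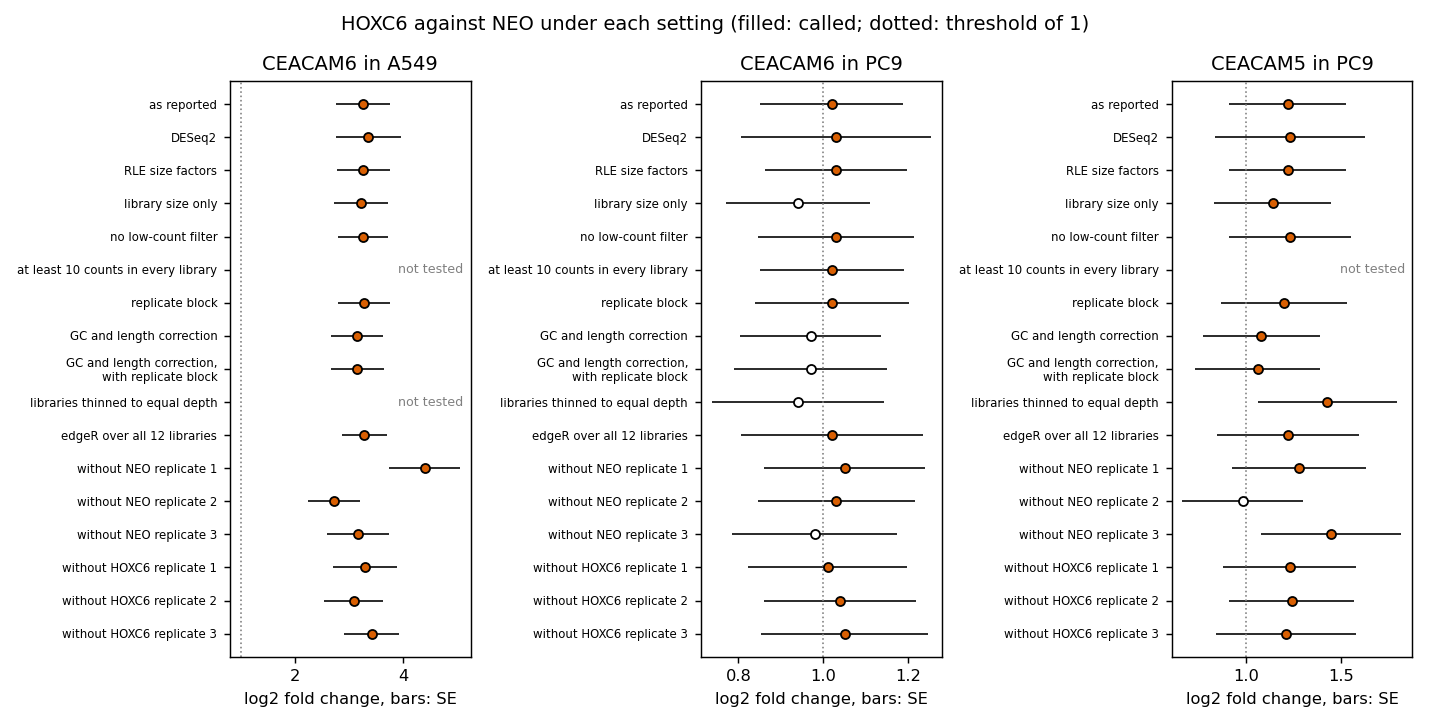
Log2 fold change of HOXC6 against NEO (horizontal axes, each with its own range) for CEACAM6 in A549 and for CEACAM6 and CEACAM5 in PC9 under the settings drawn (rows). Bars are SE, filled points were called, and the dotted line marks 1. The test for a log2 fold change beyond 1 and the settings that change only a threshold are not drawn. CEACAM6 in A549 stays between 2.72 and 4.39, whereas both genes in PC9 lie around the threshold, from 0.94 upward.

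Of 18 further CEACAM and PSG (pregnancy-specific glycoprotein) genes listed, 4 were in the table, all with low counts, and none was tested. The others were not analysed here. CEACAM8, a granulocyte surface protein, was read 7, 5 and 3 times in A549-NEO, 0, 2 and 3 times with HOXC6, none in PC9-NEO and 1 in all in PC9-HOXC6. CEACAM4 had 0 counts in all 12 libraries, CEACAM21 had 2 counts in A549-HOXC6 replicate 3 and none elsewhere, and PSG8 had at most 2 counts in any library.

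Genes for the signalling and binding partners of CEACAM proteins (kinases, phosphatases, integrins, calmodulins and others) were measured beside them, 15 of 24 in the table and 13 tested. In A549, 0 were called higher and 1 lower (the same by DESeq2), where 1.70% of all genes were called higher and 5.51% lower. At an unadjusted p under 0.05, 8 were higher and 2 lower, and the median log2 fold change was 0.32 against 0.00 over all genes. The called gene was ITGB1, the integrin beta 1 subunit, whose mean went from 2260 ± 91.1 to 1080 ± 167 CPM (log2 fold change -1.10, SE 0.0851, adjusted p 7.57e-11 by edgeR). In PC9 0 of 13 were called by edgeR or DESeq2, where edgeR called 4.53% of all genes, and the median was 0.12. Of the 13, 9 had an unadjusted p under 0.05, and 8 an adjusted p under 0.05 at any fold, against 27.5% of all genes. Between the NEO groups, HNRNPM, an RNA-binding protein also known as a receptor for CEA, was higher in PC9 (adjusted p 3.39e-22), with a median of -0.11 over the list. ITGB1 (log2 fold change -2.52, adjusted p 6.32e-31) and ITGAV, an integrin alpha subunit (177 against 63.4 CPM, adjusted p 9.23e-16), were lower in PC9.

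HNRNPM was the 1 of 13 partner genes whose difference in response between the lines was called by edgeR, against 5.15% of all genes. DESeq2 called it and also ITGB1, whose difference on the log2 scale was -1.05 by DESeq2 (adjusted p 2.48e-13) and just short of the fold change threshold by edgeR (adjusted p 1.46e-08). For HNRNPM, A549 cells gave 278, 205 and 268 reads under the empty vector. Under HOXC6 they gave 409, 184 and 342 (mean 163 ± 17.2 CPM), an HNRNPM log2 fold change of 0.73. In PC9 its mean was 390 ± 6.23 CPM with the empty vector and 222 ± 31.3 with HOXC6 (log2 fold change -0.80). The difference of its responses was 1.58 on the log2 scale (SE 0.145, adjusted p 1.36e-10 by edgeR). PTPN6, which encodes the SHP-1 phosphatase that binds the CEACAM1 tail, was named after its values were seen. It was at 53.0 ± 5.47 CPM in A549-NEO, 81.4 ± 11.2 in A549-HOXC6, 105 ± 6.88 in PC9-NEO and 113 ± 11.4 in PC9-HOXC6. PTPN6 was not called in any of the 4 comparisons. In A549, between the NEO groups and in the interaction it missed only the fold change criterion. Its log2 values there were 0.59, 0.96 and 0.52 (adjusted p 0.00101, 1.89e-09 and 0.0266 by edgeR).

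Synthesis and attachment of the GPI anchor, on which CEACAM5, CEACAM6 and CEACAM7 depend, was represented by 20 of 28 listed genes. With HOXC6 in A549, 1 of 20 was called, PIGK, the catalytic subunit of the GPI transamidase, which fell from 20.2 ± 2.88 to 9.08 ± 2.03 CPM (log2 fold change -1.16, SE 0.267, adjusted p 0.00105 by edgeR), where 5.51% of all genes were called lower, and the list's median was 0.05. In PC9, 0 of 19 were called by edgeR or DESeq2, where edgeR called 4.53% of all genes. Of the 19, 3 had an unadjusted p under 0.05 and none an adjusted one (27.5% of all genes), and the median was 0.04. Between the NEO groups 1 of 20 was higher and 6 were lower in PC9, 7 of 20 in all where 36.0% of all genes were called, with a median of -0.58 against -0.02 over all genes. The largest of these differences were PIGF (-2.81, adjusted p 3.16e-25), PIGL (-2.19, adjusted p 4.66e-18), PIGB (-1.49, adjusted p 1.24e-09) and PIGO (-1.47, adjusted p 7.41e-14), all enzymes or subunits of anchor assembly.

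Of 12 transcription factors described at CEACAM promoters, 10 were in the table. With HOXC6, 0 were called by edgeR or DESeq2, of 8 tested in A549 and of 7 tested in PC9, where edgeR called 7.21% and 4.53% of all genes. In A549 the median was -0.02, with 6 at an unadjusted p under 0.05 and the same number at an adjusted p under 0.05 at any fold, against 39.6% of all genes. Of these, 3 were higher and 3 lower, and the largest log2 fold change, -0.96, fell just short of the threshold. In PC9 the median was 0.19, with 3 at the unadjusted and 2 at the adjusted p. USF1, which binds E-boxes, was at 34.6 ± 7.05 CPM in A549-NEO, 36.2 ± 8.76 in A549-HOXC6, 27.1 ± 4.78 in PC9-NEO and 32.3 ± 3.22 in PC9-HOXC6. Between the NEO groups 1 was higher in PC9, SOX9 (1.53, adjusted p 1.03e-13), and 4 were lower, of 8 tested, with a median of -0.80, where 16.4% of all genes were called higher and 19.6% lower. SMAD3, a TGF-beta signal transducer, differed by -2.40 (adjusted p 3.50e-27) and IRF1, an interferon-induced factor, by -2.09 (adjusted p 3.05e-16). HNF4A, a factor of liver and gut epithelium, was read 70, 57 and 63 times in the A549-NEO libraries and 141, 43 and 97 times with HOXC6, but 0, 1 and 3 times in PC9-NEO and never in PC9-HOXC6. It was called in the interaction as well (adjusted p 0.0346), where the PC9 side rests on these counts.

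Other adhesion genes of the immunoglobulin superfamily and of epithelia were represented by 24 of 31 listed. In A549, 3 of 16 were higher and 1 was lower (2 and 1 by DESeq2, median 0.11), where 1.70% of all genes were called higher and 5.51% lower. JAM3, a junctional adhesion molecule, rose by 1.72 on the log2 scale (adjusted p 0.00350), ESAM by 1.18 (adjusted p 0.0406) and ICAM2 by 1.07 (adjusted p 0.0187), from means of 2.14, 2.86 and 5.18 CPM in A549-NEO. CXADR, the coxsackievirus and adenovirus receptor, fell from 28.9 ± 2.98 to 11.9 ± 0.168 CPM (log2 fold change -1.31, adjusted p 3.77e-05 by edgeR).

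In PC9, 1 of 18 adhesion genes was called (median 0.32), where 4.53% of all genes were called. NECTIN4, a nectin of epithelial tumors, was read 53, 47 and 66 times in the PC9-NEO libraries and 133, 88 and 206 times with HOXC6, a rise of 1.25 on the log2 scale (adjusted p 1.86e-07 by edgeR). The response of NECTIN4, A549 minus PC9, was -2.52 (adjusted p 5.69e-04), and the A549 libraries held 12, 9 and 6 counts of it with the empty vector and 5, 1 and 2 with HOXC6. That of JAM3 was larger in A549 by 1.87 (adjusted p 0.0462), which DESeq2 did not call. Between the NEO groups 7 of 17 were higher in PC9 and 1 was lower (median 0.35). The largest were EPCAM, the epithelial cell adhesion molecule (5.03, adjusted p 1.07e-26), IGSF9 (2.29 against 38.5 CPM, adjusted p 5.19e-15), ICAM1 (3.41, adjusted p 1.61e-22) and NECTIN4 (2.92, adjusted p 2.43e-11). CEACAM5 and CEACAM6 stood beside several other adhesion genes that were higher in PC9-NEO, at a called share of 16.4% over all genes.

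None of the tested genes around the CEACAM loci was called higher where CEACAM5 or CEACAM6 was, by edgeR or by DESeq2. Within 250 kb of a member, 57 other genes are annotated and 18 were in the table. With HOXC6, 0 of 12 were higher in A549 (median 0.18) and 0 of 8 in PC9 (median 0.24), with 6 and 5 higher at an unadjusted p under 0.05. Of all genes tested, edgeR called 1.70% higher in A549 (5.51% lower) and 0.962% higher in PC9, so 0 of so few neighbours says little. In A549 1 was lower, GRIK5, a glutamate receptor subunit, with 28, 23 and 19 counts under the empty vector and 6, 6 and 9 under HOXC6 (log2 fold change -1.29, adjusted p 0.0126 by edgeR), and DESeq2 did not call it. Between the NEO groups, in which CEACAM5 and CEACAM6 were higher in PC9, 0 of 12 neighbours were higher and 8 were lower (1 and 11 at an unadjusted p under 0.05), with a median of -1.47. Of all genes tested there, 16.4% were called higher and 19.6% lower.

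The neighbours lower in PC9-NEO included RPS19, a ribosomal protein (-1.44, adjusted p 2.30e-24), CIC, a transcriptional repressor (-1.56, adjusted p 3.39e-20), DMAC2 (188 against 68.0 CPM, adjusted p 3.73e-16), PAFAH1B3 (-1.22, adjusted p 9.99e-14) and GRIK5 (-2.61, adjusted p 1.21e-05). Others had few counts in PC9-NEO. TMEM145 had 20, 28 and 26 against 1, 0 and 1, and CNFN 14, 19 and 28 against 2, 0 and 2. Over the rest of chromosome 19, 16.6% of 640 genes were higher and 23.4% lower in PC9-NEO, with a median of -0.05, and over the other chromosomes 16.4% and 19.2% of 8359 genes.

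**Figure D5:**
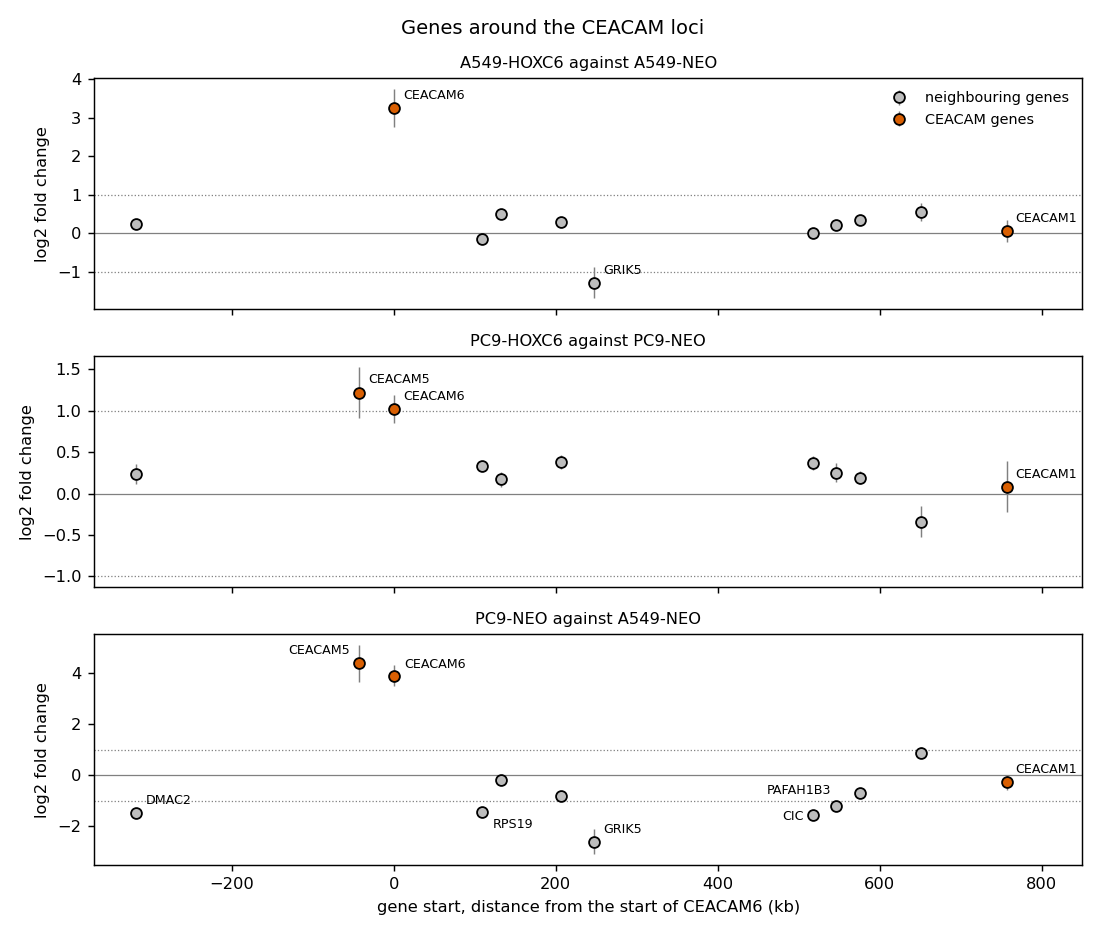
Log2 fold change (vertical axes) of tested genes within 250 kb of a CEACAM gene (other than CEACAM genes, those with at most 3 counts in every library of a group are not drawn), by distance of the gene's start from that of CEACAM6 in kb (horizontal axis), for the 3 comparisons between groups; bars are SE, dotted lines 1 and -1, orange points the CEACAM genes, and called genes are named. CEACAM5 and CEACAM6 are the highest points where they are shown, and no grey point is called higher in any panel.

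Across the 12 libraries, which share lines and vectors, the log2 levels of CEACAM5 and CEACAM6 correlated with r = 0.844 (Pearson, a description over 12 libraries in 4 groups), and those of CEACAM1 with r = -0.393 against CEACAM5 and -0.150 against CEACAM6. Among 9229 genes, those most like CEACAM6 were EMP1 (r = 0.978), NUP210 (0.974), PODNL1 (0.968), SGPL1 (0.968) and SRI (0.963). EMP1, an epithelial membrane protein, had means of 6.76, 30.8, 53.2 and 95.6 CPM in A549-NEO, A549-HOXC6, PC9-NEO and PC9-HOXC6, the same order of groups as CEACAM6. SRI, a calcium-binding protein, went from 75.6 through 124 and 140 to 175 CPM over the same groups.

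Most like CEACAM5 were DAB2IP (r = 0.977), CRB3 (0.971), PPP6R2 (0.971), PGM1 (0.970) and IL4R (0.970). CRB3, a polarity protein of epithelial cells, had means of 2.77, 7.69, 25.9 and 45.3 CPM in the same order of groups. For CEACAM1 the closest were USF1 (r = 0.853), ENSG00000167945 (0.795), ATP9B (0.764), HAUS2 (0.761) and AMPD3 (0.757). The CEACAM1 groups overlapped, and these 5 were picked as the highest of 9229 correlations over 12 libraries. Whether they exceed what such a pick gives was not tested. The mean of AMPD3, for example, was between 21.5 and 22.1 CPM in all 4 groups.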

How the data were processed

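The authors isolated poly(A) RNA, made libraries with a strand-specific kit and sequenced paired reads. Per the labels and the study's methods they aligned reads with HISAT2 2.1.0 to GRCh37.p13 and counted them per gene with HTSeq 0.9.1. The deposited values are the authors' raw read counts per gene and library, without normalization. The annotation release and strand setting are not given in the sources used here. The table has 12584 complete genes, sorted by identifier, and an incomplete last line (1) was left out. Normalization, filtering and adjustment therefore cover part of the genes.

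Names, positions and lengths came from a GENCODE annotation of GRCh37, which matched 12463 of the identifiers (121 did not match). Groups came from the sample labels. After filtering with filterByExpr and TMM scaling, edgeR 4.0.16 (R 4.3.3) was fitted over all genes of a comparison, without a replicate block, with the quasi-likelihood test and Benjamini-Hochberg adjustment. Calls needed an adjusted p under 0.05 together with an absolute log2 fold change over 1. Each line, the NEO groups and the 12 libraries (interaction) had a fit of their own. Standard errors were derived from the F statistic of each gene. Levels are CPM over 12 libraries, and correlations used log2 CPM with a prior count of 2. The fits were tested on simulated data.

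The 4 genes, the lists and the tests were chosen with earlier results of these data known. Named genes were the 4 CEACAM genes with every library, at most 4 called genes a list and comparison with the largest change, the called neighbours (1 is not reported here), and the 5 genes most like each CEACAM gene. Alternatives were DESeq2 1.42.0, other scaling, other low-count filters and thresholds, the replicate block, a correction for GC content and length (mgcv 1.9.3), thinning to equal depth, edgeR over 12 libraries and each library left out in turn. Protein sequences were not analysed here.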

Additional observations from a re-analysis of the deposited data

Results flagged for a closer look

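The response of CEACAM6 to the HOXC6 vector differed between the lines by the interaction test, by 2.26 on the log2 scale (A549 minus PC9, adjusted p 8.48e-04 by edgeR over 12 libraries), with all HOXC6 libraries above all NEO libraries in each line. A549-NEO held 8, 0 and 3 CEACAM6 counts, so the size of the difference rests on a level near the floor of 3 counts.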

How the results depend on the processing

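The number of CEACAM genes called, 1 in A549, 2 in PC9, 2 between the NEO groups and 1 in the interaction, did not change with DESeq2, RLE size factors, an adjusted p under 0.01 or no fold change criterion. With at least 10 counts in every library it was 0, 1, 0 and 0, since CEACAM6 and CEACAM5 were then not tested where a library was lower. Thinning gave 0 in A549, 1 in PC9 and 1 between the NEO groups, scaling by library size only 1 in PC9, and the GC content and length correction 1 in PC9, with or without the block. After thinning, CEACAM6 was not tested in A549, so the 0 there is not a lost rise. Testing for a log2 fold change beyond 1 gave 0 in PC9 and 0 in the interaction. Leaving out 1 library gave 1 to 2 in PC9 and no change elsewhere. The lone difference without the filter was CEACAM7 (3 called between the NEO groups).

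CEACAM1, never called, changed sign near 0: in A549 to -0.04 (GC content and length), -0.07 (with the block) and -0.03 (thinned), in PC9 to -0.01 (library size only, and GC content and length), and in the interaction to -0.03 (DESeq2), -0.02 (RLE), -0.04 (replicate block, alone and with GC content and length) and -0.27 (thinned). Without 1 library it ran from -0.09 to 0.23, -0.09 to 0.22 and -0.12 to 0.20, and CEACAM5 in the interaction from -0.32 to 3.05. The cause was not tested.

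The labels do not say what same-numbered replicates share beyond the number. Correlations of their deviations were -0.0321, 3.50e-04 and 0.0369 in A549 and 0.0177, -0.0117 and 0.0566 in PC9. Their mean was 0.00175 in A549 and 0.0209 in PC9, against -9.39e-04 and -0.0103 for other pairs. In A549 and PC9, 2 and 3 of 6 libraries correlated best with their own number, and whether they were paired was not tested. With the replicate block the CEACAM calls stayed 1, 2, 2 and 1, CEACAM6 was at 3.27 in A549 and 1.02 in PC9, CEACAM5 at 1.20 in PC9, and the calls over all genes were 643, 376, 3262 and 488 (632, 381, 3270 and 475 without it).

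Calls over all genes in A549, PC9, the NEO groups and the interaction were 343, 206, 3259 and 488 with the GC content and length correction, 419, 233, 2078 and 307 with at least 10 counts, 3469, 2316, 6596 and 1789 without the fold change criterion, and 62, 45, 2421 and 13 when testing for a log2 fold change beyond 1. Depth limits CEACAM5 and CEACAM7 in A549 (up to 4 and 16 counts per library), CEACAM6 in A549-NEO (8, 0 and 3) and CEACAM7 in PC9 (0 throughout).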

Other observations

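CEACAM8 had reads in the line that had CEACAM7. Its 15 counts in A549-NEO compare with 0 in PC9-NEO, while of 5 leukocyte and granulocyte genes in the table PTPRC, MPO and FCGR3B were at 0 in A549-NEO, CD79A had 3, 4 and 5 counts and CSF3R had 6, 0 and 1. CEACAM8 was below the filter in all comparisons and was not tested.

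With HOXC6, chromosome 19 outside the CEACAM neighbourhood held few called genes in A549 (3 of 624 higher and 15 lower, 0.481% and 2.40%), against 1.75% and 5.76% of 8074 genes on other chromosomes. In PC9 the shares on chromosome 19 were 1.86% higher and 0.338% lower of 592, against 0.864% and 3.84% of 7757. The median log2 fold change on chromosome 19 was 0.16 in A549 and 0.14 in PC9, against -0.02 elsewhere in each line. The part of chromosome, base composition or depth in this was not tested.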
